A study of Homo sapiens with 16 samples.

Results

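The mRNAs of the 10 glycolytic enzymes from hexokinase to pyruvate kinase (HK2, GPI, PFKL, ALDOA, TPI1, GAPDH, PGK1, PGAM1, ENO1 and PKM) were followed through total and polysomal RNA of an acute myeloid leukemia (AML) cell line with and without a guide RNA against YBX1. The members were chosen by name, 1 gene for each step of the pathway, and were looked up by Entrez identifier among the 18991 genes counted. All 10 passed the filter on low counts, which left 12517 genes to test. MOLM13 is an established human AML line with a KMT2A fusion, and every group carried Cas9 and was selected with puromycin and blasticidin. YBX1 is a cold-shock domain protein that binds mRNA.

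Polysomal sgYBX1 and polysomal sgLUC libraries were made from RNA of pooled heavy sucrose-gradient fractions, in which an mRNA carries several ribosomes. Total sgYBX1 and total sgLUC libraries were made from unfractionated total RNA. The authors' count columns name these libraries input, but whether their RNA came from the same lysates is not stated in the sources used here. The paper names the RNeasy kit for cultured cells and TRIZOL for polysomal fractions, so RNA extraction may differ between the fractions compared. The sgYBX1 cells had received 1 guide against YBX1, and the sgLUC cells a non-targeting guide (luciferase). All cells were taken at day 14 after transduction, and for the fractionation cycloheximide was added before lysis to hold ribosomes in place. Each of the 4 groups had 4 libraries. The knockout was a selected pool and not a clone. The study's supplement describes the polysomal fractionation as starting from 4 replicate cultures, and whether each was transduced separately is not given in the sources used here, so p-values measure the spread between cultures.

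Glycolysis converts glucose to pyruvate in the cytosol and yields ATP without oxygen. In its preparatory phase, hexokinase to triose phosphate isomerase, the cell spends ATP to make triose phosphates. In its payoff phase, glyceraldehyde phosphate dehydrogenase to pyruvate kinase, it recovers ATP and NADH. Leukemic blasts are known for a high rate of glycolysis, and the pathway is controlled mainly at hexokinase, phosphofructokinase and pyruvate kinase.

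The bases around the start codon are shown because they are the part of each mRNA that the scanning ribosome reads as it begins translation, and because they allow members that fell on polysomes to be set beside those that did not. Each line gives 9 bases before the start codon, the codon itself in capitals and 4 bases after it, 5′ to 3′, from the principal GENCODE v29 transcript (GRCh38). The members whose polysomal level fell with sgYBX1 are first:
ALDOA: accagcaccATGccct
GAPDH: tcagacaccATGggga
PGK1: atttccaaaATGtcgc
PGAM1: cccgccgccATGgccg
ENO1: aagttcaccATGtcta
PKM: tcagcagccATGtcga
HK2: cgcggcaggATGattg
GPI: agtcccgccATGgccg
PFKL: gccgccgccATGgccg
TPI1: tccagcgccATGgcgc

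All 10 members had a purine (A or G) at position -3, counting back from the A of the start codon, as had 85.8% of the 12092 tested genes with such a sequence. A G directly after the codon, at position 4, was present in 5 of 10 members and in 52.9% of tested genes. Among the tested genes called lower in polysomal RNA the share with this G was 54.7%. Of the 6 members that fell, GAPDH and PGAM1 had this G and ALDOA, PGK1, ENO1 and PKM did not, and of the others it was present in GPI, PFKL and TPI1 and not in HK2. The start codons lie on GRCh38 at chr16:30067255-30067257 for ALDOA, chr12:6534833-6534835 for GAPDH, chrX:78104341-78104343 for PGK1 and chr10:97426308-97426310 for PGAM1, all on the plus strand. Those of ENO1 and PKM lie at chr1:8874906-8874908 and chr15:72219095-72219097 on the minus strand. Those of HK2, GPI, PFKL and TPI1 lie on the plus strand at chr2:74834581-74834583, chr19:34365267-34365269, chr21:44300106-44300108 and chr12:6867567-6867569. These letters are a description of the annotated transcripts and say nothing of which start the cells used.

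Counts summed to between 38326270 and 66164414 per library. Levels are given in CPM, each gene's part of a library's counts on a fixed total, scaled by TMM, a factor per library that assumes that most genes do not differ. The factors lay between 0.6668 and 0.7978 in polysomal libraries and between 1.351 and 1.427 in total RNA libraries, so that the scaling matters for any comparison across fractions. Replicates spread more on polysomes: edgeR's common coefficient of variation between libraries was 0.149 in polysomal sgYBX1 and 0.22 in polysomal sgLUC, and 0.0378 in total sgYBX1 and 0.0562 in total sgLUC. All 10 myeloid leukemia markers checked were found, at a mean of at least 1 CPM each, whereas each of the erythroid, platelet, epithelial and fibroblast markers had a mean below 1 CPM, with PPBP and DCN at 0. Against the library total, the summed myeloid markers were at 750.0 to 873 CPM in polysomal sgYBX1, against 1174 to 1363 in polysomal sgLUC, and at 3659 to 3737 CPM in total sgYBX1, against 4804 to 4946 in total sgLUC. T cell markers, with CD2 at 0 throughout, summed to 0.937 to 1.84 CPM in polysomal sgYBX1, against 2.61 to 4.96 in polysomal sgLUC. The part of these shifts in the results below was not tested. In bulk RNA, fewer cells of a kind and less mRNA per cell cannot be told apart.

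YBX1 mRNA itself was lower in sgYBX1 cells in both fractions. It had 512, 518, 496 and 551 CPM in total sgYBX1 libraries, against 898, 873, 865 and 910.4 CPM in total sgLUC libraries (log2 fold change -0.77 ± 0.04 SE, edgeR adjusted p = 4.0e-14). In polysomal RNA it averaged 645 ± 17.1 CPM in sgYBX1 and 875 ± 76.1 in sgLUC (SD, n = 4 each), a log2 fold change of -0.44 ± 0.11 (edgeR adjusted p = 0.00517). Cas9 edits the gene and need not remove its mRNA, so these values check the labels and do not measure the protein.

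To ask whether the polysomal levels of glycolytic mRNAs differ with the YBX1 guide, polysomal sgYBX1 was compared with polysomal sgLUC. Such a level also depends on the total amount of each mRNA, which is taken up further below. Of the 10 members 6 fell (ALDOA, PGAM1, PGK1, PKM, GAPDH and ENO1), to between 61.2% and 77.3% of the control level, and none rose. Of all tested genes 21.2% were called, with 9.93% lower and 11.3% higher. In the 6 that fell, every sgYBX1 library was below every sgLUC library, which held for 10.3% of tested genes, while the opposite held for no member and 11.8% of genes. The log2 fold change was negative in all 10 members, and its median was -0.415 over the members and -0.028 over all tested genes. By pathway phase, a split chosen after the values were seen, the payoff phase fell at 5 of 5 steps and the preparatory phase at 1 of 5.

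**Figure D1:**
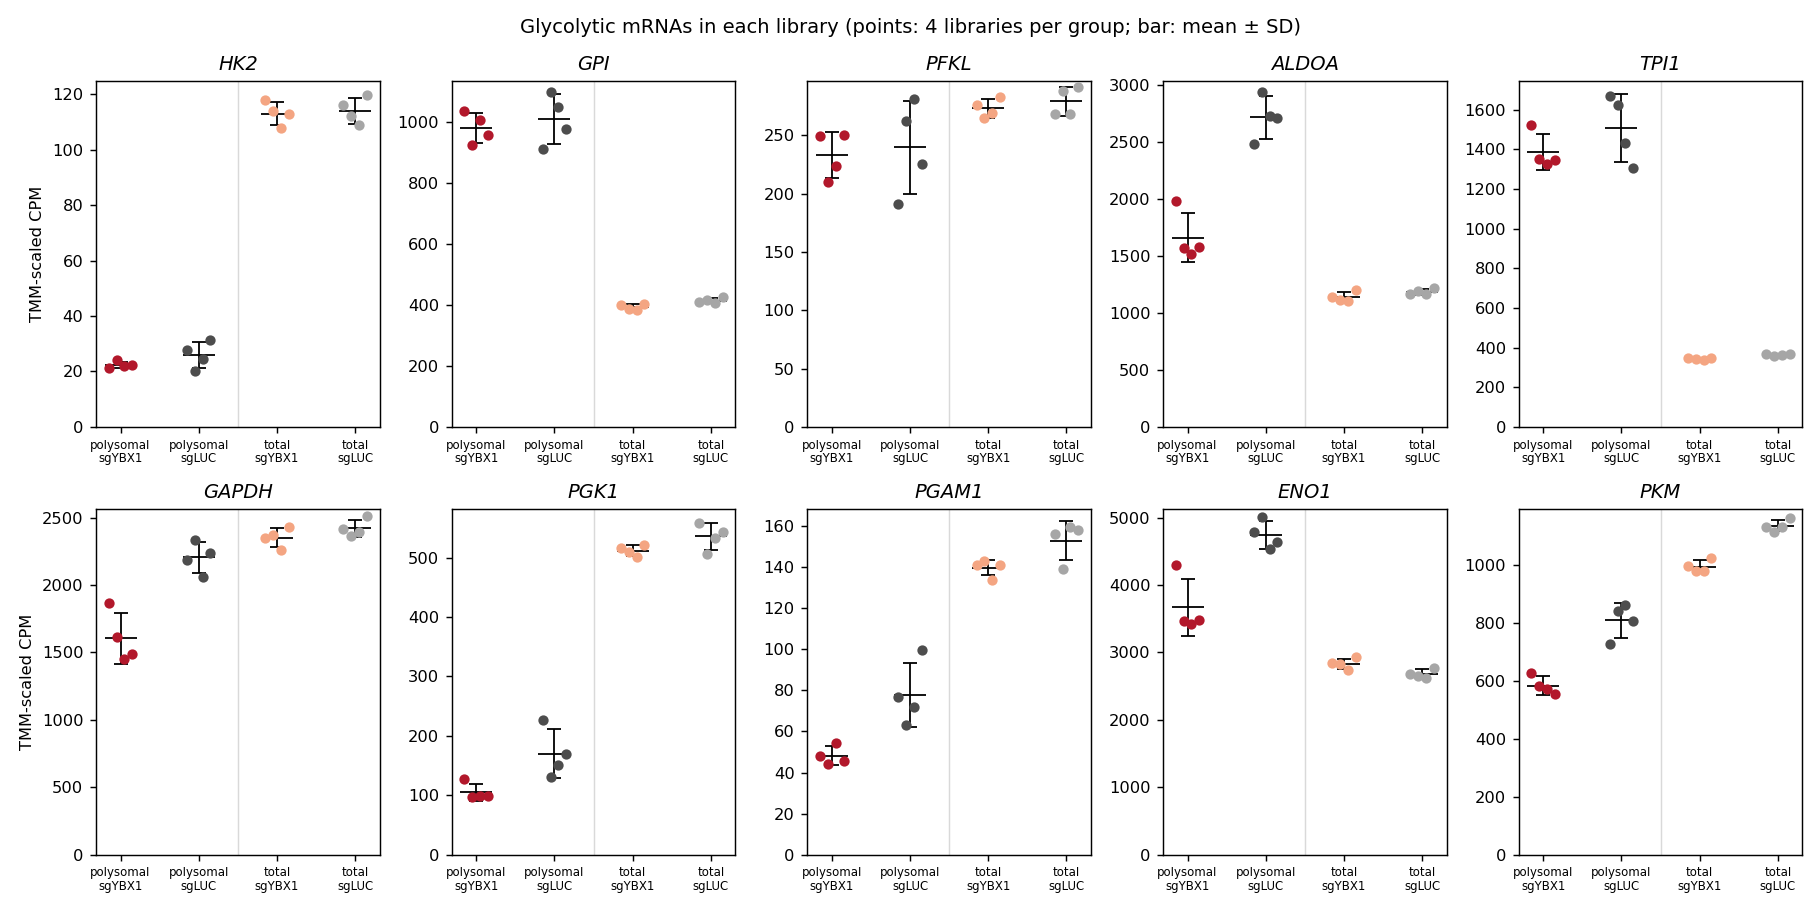
TMM-scaled CPM of each of the 10 mRNAs (y axis, from 0) in the 4 libraries of each group (points), with the mean and SD (bars); polysomal sgYBX1, polysomal sgLUC, total sgYBX1 and total sgLUC run from left to right. The polysomal sgYBX1 points lie below all polysomal sgLUC points for ALDOA, GAPDH, PGK1, PGAM1, ENO1 and PKM, while the 2 total RNA groups lie close together for every gene.

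Among the preparatory enzymes, ALDOA stood alone. Aldolase A splits the hexose bisphosphate into a pair of triose phosphates and also binds actin. Its mRNA had 1977, 1571, 1514 and 1575 CPM in polysomal sgYBX1, against 2477, 2939, 2723 and 2707 CPM in polysomal sgLUC. The groups did not overlap, and replicate 1 of sgYBX1 was the closest to the control. The log2 fold change was -0.71 ± 0.12 (edgeR adjusted p = 1.0e-04), which is 0.612 of the control level.

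The other 4 preparatory mRNAs did not pass the test. HK2, the hexokinase that traps glucose in the cell and docks on mitochondria, had 21.1, 24.0, 21.9 and 22.2 CPM in polysomal sgYBX1, against 27.8, 20.3, 24.4 and 31.5 CPM in polysomal sgLUC. These ranges overlap, and its log2 fold change was -0.22 (95% interval -0.49 to 0.05, edgeR adjusted p = 0.281). TPI1, which interconverts the triose phosphates, averaged 1387 ± 92.2 CPM in sgYBX1 and 1508 ± 170.1 CPM in sgLUC, with an interval of -0.35 to 0.11. GPI, the isomerase between the hexose phosphates, averaged 980.3 ± 49.9 CPM in sgYBX1 and 1008 ± 82.0 CPM in sgLUC, with an interval of -0.26 to 0.18. PFKL, the liver-type subunit of phosphofructokinase, averaged 233 ± 19.7 CPM in sgYBX1 and 239.7 ± 39.9 CPM in sgLUC, with an interval of -0.28 to 0.20. The lower ends of the intervals of TPI1, GPI and PFKL lie above the point estimates of all 6 members that fell. These intervals still overlap those of ENO1 (-0.60 to -0.15), GAPDH (-0.69 to -0.23) and PKM (-0.69 to -0.25). Differences between members were not tested.

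The payoff phase opens with GAPDH, the dehydrogenase that makes NADH and a common reference gene for expression. GAPDH had 1865, 1614, 1454 and 1485 CPM in polysomal sgYBX1, against 2186, 2337, 2057 and 2239 CPM in polysomal sgLUC. All 4 sgYBX1 libraries were lower, with a log2 fold change of -0.46 ± 0.12 (edgeR adjusted p = 0.00482). Next, PGK1, the kinase that makes ATP from bisphosphoglycerate and is encoded on the X chromosome, had 127, 96.5, 98.0 and 98.2 CPM in sgYBX1, against 227, 131, 150.5 and 169.6 CPM in sgLUC. Both groups had their highest value in replicate 1, and the highest sgYBX1 library lay just under the lowest sgLUC library. Its log2 fold change was -0.69 ± 0.14 (edgeR adjusted p = 6.7e-04).

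PGAM1, the mutase that moves the phosphate along the glycerate, had 48.1, 44.1, 54.6 and 45.7 CPM in polysomal sgYBX1, against 76.9, 63.3, 71.8 and 99.8 CPM in polysomal sgLUC. The groups did not overlap, and sgLUC spread the more widely of the 2, with a log2 fold change of -0.70 ± 0.13 (edgeR adjusted p = 3.5e-04). ENO1, enolase, which also gives rise to the MYC promoter-binding protein MBP-1, had 4305, 3471, 3417 and 3479.7 CPM in sgYBX1, against 4793, 5013, 4537 and 4634 CPM in sgLUC. With replicate 1 of sgYBX1 well above the other sgYBX1 libraries, the log2 fold change of ENO1 was -0.37 ± 0.11 (edgeR adjusted p = 0.02). The ENO1 call was lost without replicate 2 of sgLUC (adjusted p = 0.051) or without replicate 2, 3 or 4 of sgYBX1 (0.0589, 0.0905 and 0.0936), and when a trend on transcript length and GC content was removed (0.0713, with limma in place of edgeR). PKM, pyruvate kinase, makes the final ATP and is spliced to the isoforms M1 and M2, which gene counts do not separate. PKM had 627, 581, 569.8 and 555 CPM in sgYBX1, against 725, 839.9, 861 and 804 CPM in sgLUC (log2 fold change -0.47 ± 0.11, edgeR adjusted p = 0.00312).

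The calls of ALDOA, GAPDH, PGK1, PGAM1 and PKM held in all 18 alternatives of this comparison. Without replicate 1 of polysomal sgYBX1, the log2 fold changes were -0.80 for ALDOA, -0.80 for PGK1, -0.54 for GAPDH and -0.46 for ENO1. Library totals in place of TMM moved the median of all genes to -0.183 and those of the members down with it, to -0.86 for ALDOA, -0.19 for GPI and -0.28 for TPI1. The share of calls that were higher in sgYBX1 over all genes was then 26.2%, against 53.2% with TMM.

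In total RNA the same members differed little. Of the 10 members 2 fell, PKM and PGAM1, and none rose, where 15.9% of all tested genes were called, 9.34% lower and 6.53% higher. The median log2 fold change was -0.062 over the members and -0.008 over all tested genes. PKM had 994, 977, 977 and 1023 CPM in total sgYBX1, against 1129, 1114, 1130.0 and 1162 CPM in total sgLUC, without overlap (log2 fold change -0.19 ± 0.03, edgeR adjusted p = 1.2e-04). The PKM call held in 17 of 18 alternatives and was lost when all 16 libraries shared 1 estimate of the spread (0.321). PGAM1 had 141, 143, 134 and 141 CPM in total sgYBX1, against 156, 139, 159.7 and 158 CPM in total sgLUC. These overlapped through replicate 2 of sgLUC, and the log2 fold change was -0.13 ± 0.04 (edgeR adjusted p = 0.0283). The PGAM1 call was lost without replicate 3 or 4 of sgLUC and without any 1 of the sgYBX1 replicates, with adjusted p between 0.0502 and 0.115, and with library totals in place of TMM (0.0841).

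ENO1 was the only member with a positive log2 fold change in total RNA, at 2842, 2832, 2742 and 2926 CPM in sgYBX1, against 2682, 2654, 2627 and 2773 CPM in sgLUC. At 0.08 ± 0.03 it did not pass the test (edgeR adjusted p = 0.1), although it did in 5 of 18 alternatives. TPI1 had 343 ± 4.84 CPM in total sgYBX1 and 364 ± 4.73 CPM in total sgLUC, without overlap but with an edgeR adjusted p of 0.0701. GPI, at 394 ± 10.0 CPM in sgYBX1 and 414 ± 9.22 CPM in sgLUC, also showed no overlap (edgeR adjusted p = 0.153). Non-overlap in the lower direction was thus seen for 3 of 10 members and for 10.0% of all tested genes, and in the higher direction for no member and 7.53% of genes. The intervals of HK2 (-0.09 to 0.06), PFKL (-0.10 to 0.04), ALDOA (-0.12 to 0.01), GAPDH (-0.11 to 0.02) and PGK1 (-0.13 to 0.00) leave room for only small changes in total RNA. Library totals in place of TMM turned the split of all calls, of which 65.8% were then higher in sgYBX1, against 41.1% with TMM.

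**Figure D2:**
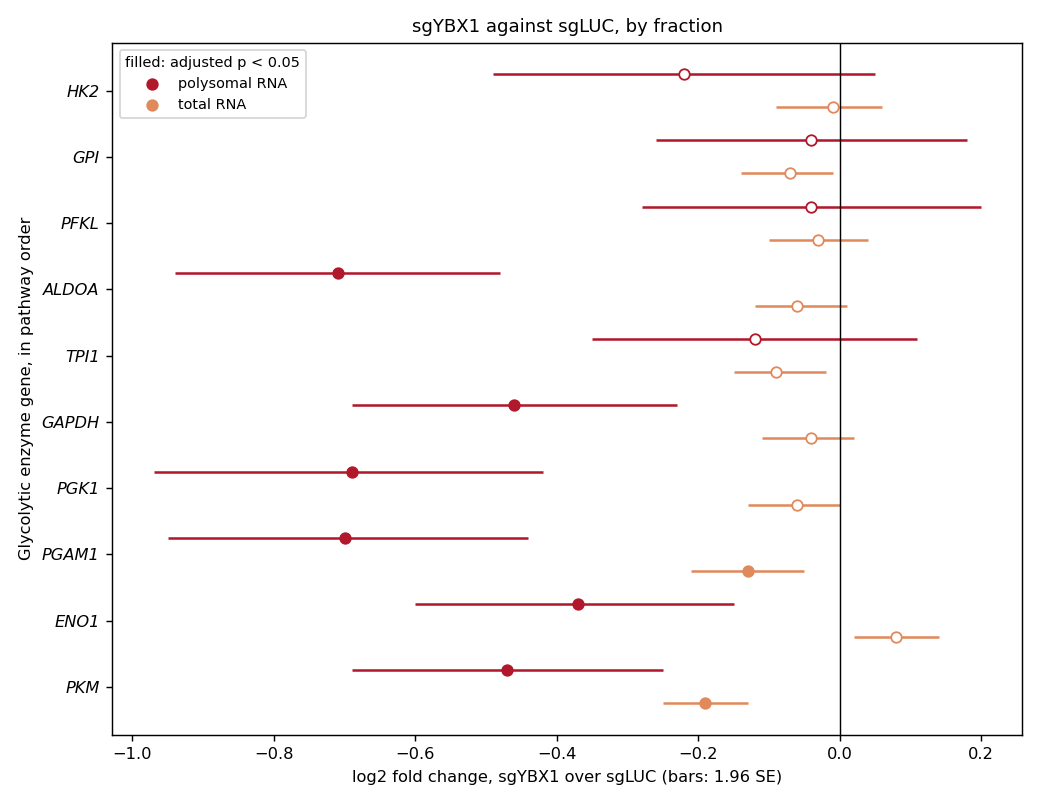
Log2 fold change of sgYBX1 over sgLUC (x axis) for each glycolytic mRNA in pathway order (y axis), in polysomal RNA and in total RNA; bars are 95% intervals and filled points passed the edgeR test. The polysomal changes of ALDOA, PGK1 and PGAM1 lie near -0.7, while all total RNA changes lie between -0.19 and 0.08.

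The difference between the polysomal and the total change was tested in the 16 libraries together, the same libraries as in both comparisons above. Of the 10 members 6 had a polysomal change below their total change and none above, where 16.7% of all tested genes passed, 6.89% below and 9.84% above. The difference was -0.65 ± 0.11 for ALDOA (edgeR adjusted p = 7.2e-04), -0.63 ± 0.17 for PGK1 (0.0121), -0.56 ± 0.15 for PGAM1 (0.0104), -0.45 ± 0.11 for ENO1 (0.00547) and -0.42 ± 0.11 for GAPDH (0.00998). PKM, which also fell in total RNA, had a difference of -0.28 ± 0.10 (edgeR adjusted p = 0.0492), and this call held in only 7 of 25 alternatives. HK2 (-0.21, 95% interval -0.47 to 0.06), GPI (0.03, -0.16 to 0.22), PFKL (-0.01, -0.27 to 0.25) and TPI1 (-0.03, -0.25 to 0.18) did not pass. The median difference was -0.348 over the members and -0.036 over all tested genes. With library totals in place of TMM the median of all genes was -0.231, and 20.1% of calls were above 0, against 58.8% with TMM.

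The 10 mRNAs differed far more in how they divided between the fractions than in their response to the guide. In sgYBX1 cells 4 of 10 members were higher in polysomal than in total RNA and 6 were lower, where 83.0% of all tested genes were called, 39.9% higher and 43.1% lower. In sgLUC cells 4 were higher and 5 lower, where 81.8% were called, 39.3% higher and 42.5% lower. TPI1 was the most polysomal member, at 1387 ± 92.2 CPM in polysomal and 343 ± 4.84 CPM in total RNA of sgYBX1 cells (log2 fold change 2.02 ± 0.08, edgeR adjusted p = 8.0e-17), and at 2.05 ± 0.08 in sgLUC cells. GPI followed with 1.31 in sgYBX1 and 1.28 in sgLUC cells. HK2 was the opposite, with -2.34 ± 0.10 in sgYBX1 (edgeR adjusted p = 4.1e-16) and -2.14 in sgLUC cells, and PGK1 was close to it with -2.29 in sgYBX1 and -1.66 in sgLUC cells.

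ALDOA was 0.55 ± 0.08 above total RNA in sgYBX1 and 1.20 ± 0.08 in sgLUC cells, and ENO1 0.37 ± 0.07 in sgYBX1 and 0.82 ± 0.07 in sgLUC cells. PGAM1 was at -1.54 in sgYBX1 and -0.97 in sgLUC cells, PKM at -0.77 in sgYBX1 and -0.49 in sgLUC cells, and PFKL at -0.23 in sgYBX1 and -0.22 in sgLUC cells. GAPDH was at -0.55 ± 0.08 in sgYBX1 cells and at -0.14 ± 0.08 in sgLUC cells, where it did not pass (edgeR adjusted p = 0.104), although it did in 5 of 17 alternatives. With the length and GC trend removed and limma in place of edgeR, GAPDH in sgLUC cells was at -0.76 (adjusted p = 1.4e-08), and the calls of ALDOA and ENO1 in sgYBX1 cells were lost (0.09 and 0.04, adjusted p = 0.305 and 0.709), and the PFKL call held in 11 of 17 alternatives in each kind of cell. These values are relative to the other mRNAs of a fraction. TMM assumes that most genes do not differ, whereas 83.0% of tested genes in sgYBX1 and 81.8% in sgLUC cells were called between the fractions. Higher and lower here therefore depend on the scaling. With library totals in place of TMM the median of all genes moved to -1.146 in sgYBX1 and -0.929 in sgLUC cells, and 24.7% and 27.3% of all calls were then higher in polysomal RNA, against 48% in each with TMM. ALDOA then stood at -0.50 and ENO1 at -0.68 in sgYBX1 cells, and ENO1 at -0.03 in sgLUC cells, while TPI1 and GPI stayed above 0 and HK2, PFKL, PGK1, PGAM1, GAPDH and PKM below it.

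**Figure D3:**
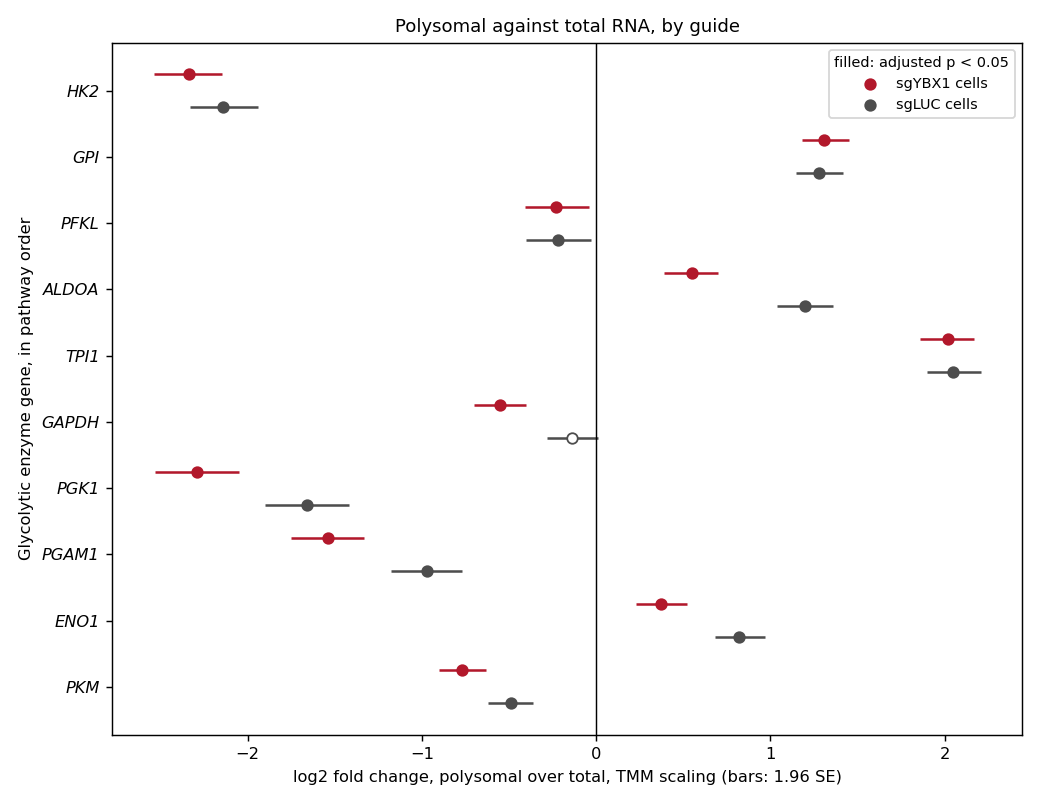
Log2 fold change of polysomal over total RNA (x axis, TMM scaling) for each glycolytic mRNA in pathway order (y axis), in sgYBX1 cells and in sgLUC cells; bars are 95% intervals and filled points passed the edgeR test. TPI1 near 2 and HK2 below -2 mark the ends. ALDOA, GAPDH, PGK1, PGAM1, ENO1 and PKM lie further to the left in sgYBX1 than in sgLUC cells, and HK2 does so with overlapping intervals.

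Per kilobase of exon, which allows genes to be compared, ENO1 and GAPDH led total RNA, at 1179 ± 31.2 and 1058 ± 30.8 CPM per kb in sgYBX1 and at 1117 and 1089 CPM per kb in sgLUC cells. ALDOA and PKM followed, at 308 and 299.8 CPM per kb in sgYBX1 and at 321 and 342 in sgLUC cells. Then came TPI1 (158 in sgYBX1, 167 in sgLUC), PGK1 (103, 107), PFKL (92.4, 94.2), GPI (88.1, 92.6) and PGAM1 (76.4, 83.7), with HK2 last at 19.1 in sgYBX1 and 19.2 in sgLUC cells. PFKL and GPI overlapped in both groups, ALDOA and PKM overlapped in sgYBX1 only, and ENO1 and GAPDH in sgLUC only. With coding length in place of exon length, GAPDH came before ENO1 and PFKL after GPI and PGAM1 in both total RNA groups, and ALDOA before PKM in total sgLUC.

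In polysomal RNA the order was ENO1 (1526 ± 177 CPM per kb in sgYBX1, 1974 ± 86.5 in sgLUC), GAPDH (721, 991), then TPI1 (638, 694) and ALDOA (450.2, 736), which changed places between the groups. GPI (219 in sgYBX1, 225 in sgLUC) and PKM (176, 244) did so as well. PFKL (78.9, 81.1), PGAM1 (26.3, 42.6), PGK1 (19.4 to 25.4 over the sgYBX1 libraries, 26.4 to 45.6 over the sgLUC libraries) and HK2 (3.76, 4.38) closed the list. Neighbours overlapped for GAPDH and TPI1 in sgYBX1, for ALDOA and TPI1 and for PKM and GPI in sgLUC, and for PGAM1 and PGK1 in both. With coding length, GPI came before PKM in both groups, so that this pair no longer changed places, GAPDH came after TPI1 in sgYBX1 and after ALDOA in sgLUC, and PGK1 came before PGAM1 in both. The 10 mRNAs together took 0.701% ± 0.0674 of all counts in polysomal sgYBX1 and 1.02% ± 0.0648 in polysomal sgLUC, and 1.28% ± 0.0223 in total sgYBX1 and 1.27% ± 0.0229 in total sgLUC (SD, n = 4 each).

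**Figure D4:**
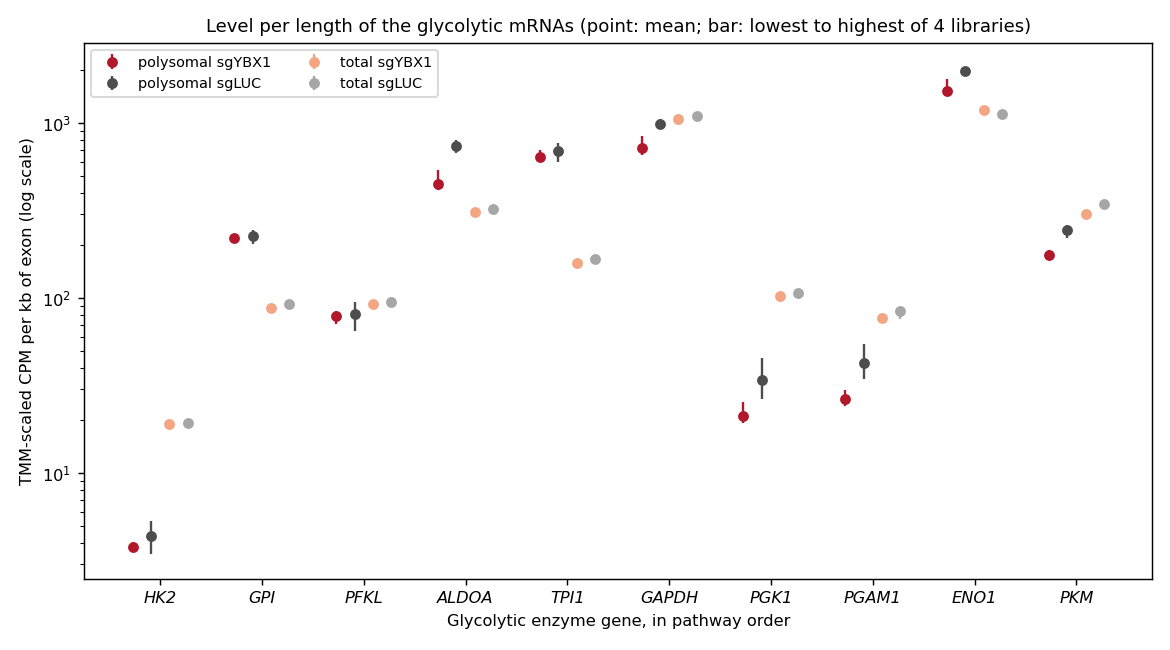
TMM-scaled CPM per kilobase of exon (y axis, log scale) of each glycolytic mRNA in pathway order (x axis); points are means of 4 libraries and bars run from the lowest to the highest library. The levels run from 3.76 for HK2 in polysomal sgYBX1 to 1974 for ENO1 in polysomal sgLUC.

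Of the 16 other isozymes listed for these steps, 11 passed the filter. Of these 11, 1 fell on polysomes and none rose, where 9.93% of all tested genes fell and 11.3% rose. The 1 was ADPGK, an ADP-dependent glucokinase, at 45.5 ± 2.24 CPM in sgYBX1 and 57.4 ± 5.02 CPM in sgLUC (log2 fold change -0.33, edgeR adjusted p = 0.039). Its call held in 11 of 18 alternatives. PFKP, the platelet-type phosphofructokinase, had 57.6 ± 5.81 CPM in polysomal sgYBX1 and 67.4 ± 4.64 in polysomal sgLUC (edgeR adjusted p = 0.176), and HK1, the ubiquitous hexokinase, 21.0 ± 1.61 CPM in sgYBX1 and 22.4 ± 1.85 in sgLUC (0.667). ALDOC, ENO3, ENO2, PFKM, HK3, PGAM4, PGAM2 and GAPDHS all averaged below 8 CPM on polysomes, and none of the 8 passed there. Of these, ENO3 had a polysomal log2 fold change of 0.52 (edgeR adjusted p = 0.0653) and passed in 4 of 17 alternatives. In total RNA 2 of the 11 fell and 2 rose, beside 9.34% and 6.53% of all tested genes. Those that fell were HK1 (log2 fold change -0.14, edgeR adjusted p = 0.0206) and PFKM (-0.49, 0.00403). Those that rose were GAPDHS (0.42, 0.0088) and PGAM2 (0.40, 0.0216). These calls held in 11 of 18 alternatives for HK1, 16 of 17 for PFKM, 15 of 17 for GAPDHS and 12 of 17 for PGAM2. Because PGAM4 is nearly identical to PGAM1 in sequence, reads of the pair may have been divided or dropped by the counting.

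On either side of the pathway, of 9 genes of glucose and lactate transport 2 fell on polysomes and 1 rose, where 9.93% of all tested genes fell and 11.3% rose. SLC2A1, the GLUT1 glucose carrier, fell to a mean of 11.1 CPM in polysomal sgYBX1, against 16.3 CPM in polysomal sgLUC (log2 fold change -0.55 ± 0.15, edgeR adjusted p = 0.0106). SLC2A8, another glucose carrier, fell to 10.5 ± 0.884 CPM in sgYBX1, against 14.6 ± 2.43 CPM in sgLUC (edgeR adjusted p = 0.0296, held in 13 of 18 alternatives). SLC16A1, the MCT1 lactate carrier, rose to 119 ± 14.5 CPM in sgYBX1, against 90.6 ± 10.4 CPM in sgLUC (edgeR adjusted p = 0.0172, held in 14 of 18). In total RNA, SLC2A5, the fructose carrier, and SLC16A3 rose by 0.25 and 0.15 on the log2 scale, and SLC2A3 fell by 0.16 (edgeR adjusted p = 2.6e-04, 0.0208 and 0.0203). The SLC16A3 call held in 13 of 18 alternatives and the SLC2A3 call in 12 of 18.

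Of 10 genes for the fates of pyruvate, 4 fell on polysomes and none rose, beside 9.93% and 11.3% of all tested genes. LDHA and LDHB, the subunits of lactate dehydrogenase, had log2 fold changes of -0.41 ± 0.12 and -0.44 ± 0.12 (edgeR adjusted p = 0.0103 and 0.011, each held in 16 of 18 alternatives). MPC2, a subunit of the mitochondrial pyruvate carrier, had -0.55 ± 0.15 (edgeR adjusted p = 0.00711), and DLD, of the pyruvate dehydrogenase complex, -0.50 ± 0.16 (0.0263, held in 13 of 18 alternatives). By edgeR 0 of the 10 passed in total RNA, where 1 had an unadjusted p under 0.05 and DESeq2 called 1. The polysomal minus total difference passed for LDHA (edgeR adjusted p = 0.049), LDHB (0.025) and MPC2 (0.044), and not for DLD (0.104), and these calls held in 9, 21 and 11 of 25 alternatives for LDHA, LDHB and MPC2.

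Of 12 tested regulators, 4 fell on polysomes and none rose, beside the same 9.93% and 11.3% of all tested genes. PDK3 and PDK2, kinases that shut off pyruvate dehydrogenase, had log2 fold changes of -0.74 and -0.55 (edgeR adjusted p = 0.0016 and 0.0252), and the PDK2 call held in 15 of 18 alternatives. ARNT, the partner of HIF1A, had -0.57 (0.00435). MYC, a transcription factor that drives many glycolytic genes, had -0.39 (0.0351, held in 11 of 18 alternatives) on polysomes and rose in total RNA to 847 ± 28.5 CPM in sgYBX1, against 752 ± 27.2 CPM in sgLUC (edgeR adjusted p = 0.00118). In total RNA, PDK3 and BPGM fell by 0.42 and 0.30, and TIGAR, a phosphatase that opposes glycolysis, rose by 0.27 on the log2 scale (edgeR adjusted p = 7.8e-05, 0.00332 and 0.00149).

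The pentose phosphate pathway, which branches off at the hexose phosphates, had 0 of 7 genes past the test on polysomes by edgeR and 0 by DESeq2, with 1 at an unadjusted p under 0.05. Of the 3 tested gluconeogenic genes, PCK2 (-0.49, edgeR adjusted p = 0.00425) and FBP1 (-0.59, 0.0331, held in 10 of 18 alternatives) fell on polysomes. As a comparison outside glycolysis, 9 abundant cytosolic mRNAs were tested, of which HSPA8 (-0.44, edgeR adjusted p = 0.0167, held in 13 of 18 alternatives) and TUBA1B (-0.33, 0.0357, held in 9 of 18) fell on polysomes and HSP90AB1 rose by 0.71 (2.6e-04). Their median on polysomes was -0.29, beside -0.415 for the glycolytic members. In either direction, 7 of these 9 had an unadjusted edgeR p under 0.05 on polysomes, and DESeq2 called 5. Among the 10 glycolytic members these counts were 6 and 6. EEF2 and TUBA1B fell in total RNA by 0.25 and 0.19 on the log2 scale (edgeR adjusted p = 6.1e-06 and 4.8e-04).

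The genes whose levels most resembled the mean profile of the 10 members over the 16 libraries, out of 3937 genes averaging 50 CPM or more, were GRN (Pearson r = 0.976), MCM2 (0.931), PRDX2 (0.917), ABCF2 (0.912) and MAPKAPK3 (0.907). The libraries share fraction and guide, so these are descriptions. Members such as TPI1 and HK2 go in opposite directions between the fractions, so the mean profile need not be that of any single member. GRN, progranulin, had 218 ± 39.7 CPM in polysomal sgYBX1 and 351 ± 22.5 in polysomal sgLUC, and 305 CPM in total sgYBX1 and 318 in total sgLUC. PRDX2, a peroxiredoxin, had 125 ± 19.8 CPM in polysomal sgYBX1 and 192 ± 26.2 in polysomal sgLUC.

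The authors also deposited a gene effect for MOLM13 from a public CRISPR screen, in which lower scores mean that cells losing the gene drop out. Of the 10 members 7 were below -0.5, the line used for a dependency, as were 11.9% of the 18333 genes scored. PGK1 (-1.21) and ALDOA (-1.15) were the lowest, followed by ENO1 (-0.977), GAPDH (-0.961), PKM (-0.829), PGAM1 (-0.818) and TPI1 (-0.802). PFKL scored -0.334, HK2 0.43 and GPI 0.6. These are single scores without replicates, and all 6 members that fell on polysomes were among the 7.

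Reads of these genes can also come from near-identical copies. RefSeq lists 65 pseudogenes named for GAPDH, 13 for PGAM1, 5 for PKM and 4 each for TPI1 and ENO1, and none of them is a row of the count table. How reads shared with them were treated is not given in the sources used here, so the levels of GAPDH and PGAM1 in particular are uncertain. The median member transcript had 2559.5 bases and 57.2% GC, beside 3080 bases and 49.6% GC over the tested genes.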

How the data were processed

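RNA from MOLM13-Cas9 cells was sequenced by the study as poly(A)-selected, paired-end libraries. The authors deposited raw read counts per gene without normalization. Per the labels, build GRCh38 was used, and the tools listed in the submitters' notes, in no stated role or order, are featureCounts 2.0.1, STAR 2.7.8a, DESeq2 1.30.0 and Trimmomatic 0.36.5. Annotation, strand setting and gene filter are not given in the sources used here. The symbol column of the count table matched its Entrez identifier for 11 genes only, so counts were read by identifier and named through the pairing in the authors' gene tables (17521 genes) or RefSeq (1461). Of the nonzero counts below 40, 62.1% were even, so a count may not stand for 1 fragment. Fold changes and p-values of the authors' own comparisons, which those tables hold, were not used. The gene effect score, from a public screen of MOLM13, is the value the authors deposited.

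Counts were analysed with edgeR 4.0.16 in R 4.3.3 (filterByExpr with 4 groups, TMM over 16 libraries, quasi-likelihood F tests, two-sided, Benjamini-Hochberg over all 12517 genes, threshold 0.05). Each knockout comparison was fitted on the 8 libraries of its fraction, and the contrasts between fractions on all 16. An SE is the log2 fold change over the root of F, and 95% intervals use the normal quantile. Alternatives used DESeq2 1.42.0 and limma 3.58.1. The fits were also run on simulated counts with known changes and a single spread per group, and the outcome is not reported here. Figures were drawn with matplotlib 3.10.9, and lengths and start codons come from GENCODE v29.

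The members and lists were chosen with earlier results of these data known. Named genes are the members, YBX1, every tested isozyme, up to 4 called genes per other list and knockout comparison with the smallest adjusted p, and the 5 genes of at least 50 CPM most like the members' mean z-score of log2 CPM (prior count 2). Library totals ran from 38326270 to 66164414 counts. Some listed genes are not reported here.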

Additional observations from a re-analysis of the deposited data

Results flagged for a closer look

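In polysomal sgYBX1, replicate 1 stood apart from the other 3 libraries for 4 members, in each case as the highest. The gap to its neighbour took 0.87 of the group's range for ALDOA, 0.856 for TPI1, 0.941 for PGK1 and 0.929 for ENO1, above Dixon's 95% critical value for 4 samples. Of 40 groups of 4 libraries looked at, these 4 exceeded it, where chance gives about 1 in 20, and all 4 come from the same library. The values are 1977 CPM for ALDOA, 1524 for TPI1, 127 for PGK1 and 4305 for ENO1. Without this library the polysomal log2 fold changes were -0.80, -0.17, -0.80 and -0.46 for these 4 genes (edgeR adjusted p = 1.1e-04, 0.362, 8.5e-04 and 0.00498).

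The polysomal change differed from the total RNA change for 6 members by the interaction test over 16 libraries. The difference was -0.65 for ALDOA, -0.63 for PGK1, -0.56 for PGAM1, -0.45 for ENO1, -0.42 for GAPDH and -0.28 for PKM. ENO1 is the member whose estimates point in opposite directions, at -0.37 in polysomal and 0.08 in total RNA.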

How the results depend on the processing

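The numbers of members called stayed within 1.5 times of the reported ones in all alternatives of the polysomal comparison, the difference and the fraction contrasts. In total RNA the 2 members called became 4 with DESeq2, 6 with the length and GC trend removed and limma in place of edgeR, 7 with these and a replicate block, and 0 with all 16 libraries in 1 fit. All genes called there moved to 3078 with the trend, 3603 with trend and block and 136 with 16 libraries (reported 1986). For polysomal RNA the 16-library fit gave 4639 (reported 2655), and for the difference library totals gave 3371 (reported 2095). Leaving out 1 library gave 1 to 4 members and 1328 to 3155 genes in total RNA (3155 without replicate 2 of sgLUC), 5 to 6 and 1734 to 2883 in polysomal RNA (1734 without replicate 4 of sgYBX1), 5 to 6 and 1511 to 2718 for the difference, 9 to 10 and 10156 to 10309 between fractions in sgYBX1, and 8 to 10 and 9988 to 10357 in sgLUC. Library totals reversed polysomal against total RNA for ALDOA (-0.50) and ENO1 (-0.68) in sgYBX1 and ENO1 in sgLUC cells (-0.030). The cause was not tested. Over all single genes named, 1259 values under alternatives kept their call, 816 stayed uncalled, 238 lost and 34 gained a call, and every called gene outside the members kept its direction.

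Libraries of the same replicate number correlated, in their deviations from group means, at -0.251 to 0.296 between guides and -0.171 to 0.472 between fractions. Libraries of unlike number were not compared, so these values cannot tell whether replicate numbers pair the libraries. The replicate block gave 3 members in total RNA, 6 in polysomal RNA and 5 for the difference. With it, ENO1 passed in total RNA (adjusted p = 0.0325) and PKM was lost from the difference (0.0923). GAPDH lost the difference only with trend and block together (0.0589). TMM within the fraction, chosen after the data were seen, left 6 polysomal members. A share of counts has no value without TMM of its own. Outside ribosomal protein genes it was 0.78% in polysomal sgYBX1 and 1.17% in polysomal sgLUC. The wide spread of polysomal replicates limits the precision for every member. The polysomal SE was 0.14 for HK2, 0.11 for GPI, 0.12 for PFKL and 0.12 for TPI1, and between 0.11 and 0.14 for the 6 members that fell.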
